A study of Homo sapiens with 9 samples.

Results

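The transcripts described here are those of Trp53, which encodes the tumor suppressor p53, of 8 genes that p53 is known to switch on, and of Cdkn2a, which acts upstream of p53. These 10 genes were chosen by symbol among the 17369 genes of the expression table, and all 10 were found. RNA was sequenced from 9 orthotopic thyroid tumors, 3 in each of 3 groups. B6129SF1 hosts were given original TBP3743 cells (original group) or adapted TBP3743 cells (adapted B6129SF1 group), and C57BL/6 hosts were given adapted cells (adapted C57BL/6 group). All hosts were 6-week-old females, the cells were injected into the thyroid, and the tumors were harvested after 14 days. TBP3743 is a murine anaplastic thyroid cancer line from a B6129SF1 mouse, and it carries a thyroid-specific activating Braf mutation together with a thyroid-specific deletion of Trp53. The adapted cells were recovered from subcutaneous tumors after 3 rounds of passage through C57BL/6 mice, and both adapted groups received cells with the same passage history. The deletion was therefore shared by the tumor cells of all 3 groups, and no group with intact Trp53 in the tumor cells was measured. No group received original cells in C57BL/6 mice.

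p53 is a transcription factor that accumulates after DNA damage or oncogene activation. It then halts the cell cycle through Cdkn1a, favours cell death through Bax and Bbc3, and limits itself through Mdm2, the ubiquitin ligase that marks p53 for destruction. Cdkn2a encodes both p16INK4a, an inhibitor of cyclin D-dependent kinases, and p19ARF, which blocks Mdm2. Loss of p53 function is a frequent event in human anaplastic thyroid cancer.

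Levels were given as FPKM, fragments scaled by transcript length and by library, and read counts were not used here. Low FPKM values gave an approximate depth between 0.959 and 1.35 times that of original replicate 1, with 79 to 173 of 1025 to 1252 weak genes on the main step. Of the epithelial markers, Krt8 (153 to 615 FPKM) and Krt18 (110 to 390 FPKM) were abundant, whereas Krt7, Krt19, Epcam and Cdh1 averaged between 0.940 and 2.61 FPKM. The thyroid transcription factor gene Nkx2-1 lay between 23.5 and 44.5 FPKM, whereas 6 of the 8 thyroid follicular markers listed, including Pax8 and Tshr, were below the filter on low values. Tg, the other thyroid marker that met the filter, was uneven, at 0.0153, 30.2 and 12.2 FPKM in the original group. It was 0.0431, 0.0382 and 1.20 FPKM in the adapted B6129SF1 group and 31.0, 11.3 and 0.358 FPKM in the adapted C57BL/6 group. Skeletal muscle markers summed to 35235 FPKM (6.52% of all FPKM) in adapted B6129SF1 replicate 3 and to 5274 FPKM in adapted C57BL/6 replicate 1, against at most 666 FPKM in any other tumor. Epithelial markers, of which Krt8 alone passed the test described next and was lower in both adapted groups (limma adjusted p = 0.0189 and 0.0346), summed to between 577 and 970 FPKM in the original group, 265 and 547 FPKM in the adapted B6129SF1 group, and 370 and 423 FPKM in the adapted C57BL/6 group. Leukocyte markers summed to between 1650 and 1985 FPKM in the original group, 2202 and 3218 FPKM in the adapted B6129SF1 group, and 1398 and 2479 FPKM in the adapted C57BL/6 group. In whole tumors, fewer cells of a type and less RNA per cell cannot be told apart.

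Group means of log2(FPKM + 1) were compared over the 10263 genes that reached 1 FPKM in 3 tumors or more, by limma with Benjamini-Hochberg adjustment over all of them. This scale understates the change of weak genes. A gene passed the test at an adjusted p under 0.05, and a DEG also had an absolute log2 fold change above 1. Of the 10 genes, 9 met the filter on low values, and Cdkn2a did not.

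The 10 genes spanned a wide range of levels. Averaged over the 9 tumors, Bax was the highest at 68.3 FPKM, followed by Cdkn1a at 47.8, Ccng1 at 33.3, Mdm2 at 23.1 and Trp53 at 11.0 FPKM. Bbc3 (6.38 FPKM), Sesn2 (4.52 FPKM) and Zmat3 (4.47 FPKM) were lower, and Gdf15 (1.01 FPKM) and Cdkn2a (0.527 FPKM) were near or under the 1 FPKM of the filter on low values. Neighbours in this order overlapped across tumors, apart from Mdm2 and Trp53 and from Zmat3 and Gdf15. The largest spread between tumors was that of Cdkn2a, at 4.83-fold from lowest to highest, and the smallest were those of Mdm2 and Bax, at 1.54-fold and 1.53-fold.

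**Figure D1:**
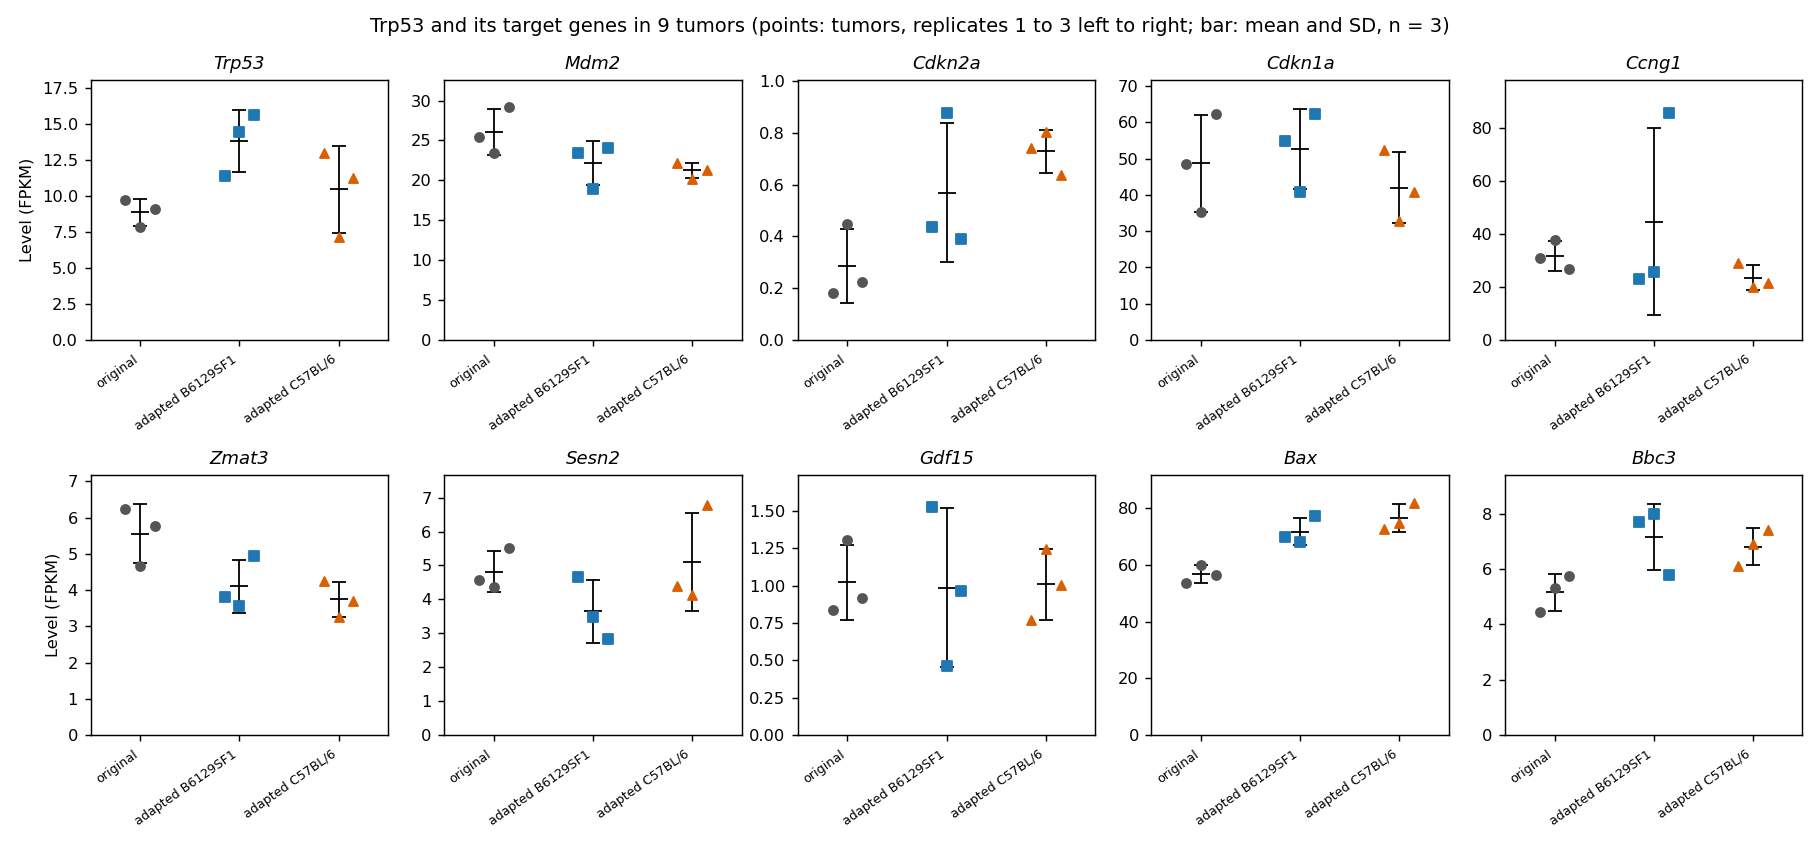
Level of each of the 10 genes in FPKM (vertical axes from 0) in the 3 tumors of the original, adapted B6129SF1 and adapted C57BL/6 groups, with the mean and SD of each group. Bax lies at 53.7 to 60.0 FPKM in the original tumors and at 68.1 to 82.0 FPKM in the adapted tumors, and Ccng1 reaches 85.3 FPKM in adapted B6129SF1 replicate 3 alone.

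Trp53 transcripts were present in every tumor, although the tumor cells carried a Trp53 deletion. The level was 9.69, 7.82 and 9.09 FPKM in original replicates 1 to 3. In the same order it was 11.4, 14.5 and 15.6 FPKM in the adapted B6129SF1 group and 13.0, 7.14 and 11.2 FPKM in the adapted C57BL/6 group. Over all tumors Trp53 thus lay above 41.3% of the genes tested. The sources used here do not state which exons were deleted, and transcripts of the tumor cells and of host cells in the tumor cannot be told apart in these values. The 3 adapted B6129SF1 tumors were all above the original tumors, whereas adapted C57BL/6 replicate 2 was the lowest of all tumors.

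The log2 fold change of Trp53 was 0.58 in the adapted B6129SF1 group against the original group (standard error [SE] 0.20, limma adjusted p = 0.114) and 0.18 in the adapted C57BL/6 group (SE 0.20, adjusted p = 0.631). Neither passed the test. The adapted B6129SF1 comparison passed in 1 of the 9 fits that omitted 1 tumor, the fit without adapted C57BL/6 replicate 2 (log2 fold change 0.58, adjusted p = 0.0479). Between the adapted C57BL/6 and adapted B6129SF1 groups the log2 fold change was -0.40 (95% confidence interval -0.86 to 0.06, adjusted p = 0.821). Wrap53, a gene read from the opposite strand next to Trp53 and named here because the strand setting of the counting is not given in the sources used here, lay between 5.58 and 8.51 FPKM in all tumors.

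The tumors with the lowest and the highest Trp53 also had the lowest and the highest leukocyte sum, whereas the order of the others differed. Adapted C57BL/6 replicate 2 was the lowest (7.14 FPKM of Trp53 and a sum of 1398 FPKM), and adapted B6129SF1 replicate 3 was the highest (15.6 FPKM and 3218 FPKM). Adapted B6129SF1 replicate 1 had the second highest sum (2690 FPKM) with 11.4 FPKM of Trp53, and replicate 2 had the second highest Trp53 (14.5 FPKM) with a sum of 2202 FPKM. Lyz2, a lysozyme gene of myeloid cells, made up most of each sum at 913 to 2314 FPKM. Ptprc, the common leukocyte antigen CD45, was 16.4, 11.6 and 18.8 FPKM in the original group, 21.9, 31.6 and 34.5 FPKM in the adapted B6129SF1 group and 35.6, 17.6 and 31.6 FPKM in the adapted C57BL/6 group. Csf1r, the receptor for macrophage colony-stimulating factor, was between 59.9 and 69.2 FPKM in the original group and between 102 and 116 FPKM in the adapted B6129SF1 group, and was 95.2, 43.8 and 89.2 FPKM in the adapted C57BL/6 group. Of the 12 leukocyte markers tested, 11 had a positive log2 fold change in each adapted group, against 45.7% (adapted B6129SF1) and 46.1% (adapted C57BL/6) of all genes tested. Only Nkg7 passed the test in either, where 8.28% and 6.75% of all genes did. An unadjusted p under 0.05 from limma was found for 7 and 5 of the 12 leukocyte markers (26.5% and 24.4% of all genes). The groups did not overlap for 7 and 4 of these markers (29.6% and 32.8% of all genes). The part of these cells in the Trp53 level was not tested.

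Among the 8120 other genes with a mean of at least 5 FPKM, the pattern most like that of Trp53 over the 9 tumors was that of Zfp385a, a zinc finger gene (Pearson's r = 0.98, Spearman's rho = 0.98). Next came Tifab, Myo1f, Tspan32 and Cyth4, each with r between 0.95 and 0.96. Myo1f encodes a class I myosin, Tspan32 a tetraspanin and Cyth4 a cytohesin. These genes were taken as the highest of all correlations, so no p-value is given, and the 9 tumors share the group differences described above. Cyth4 had a mean of 28.9 FPKM in the original group, 50.5 FPKM in the adapted B6129SF1 group and 40.1 FPKM in the adapted C57BL/6 group. Its order of groups was that of Trp53, but the gene was picked for this likeness.

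**Figure D2:**
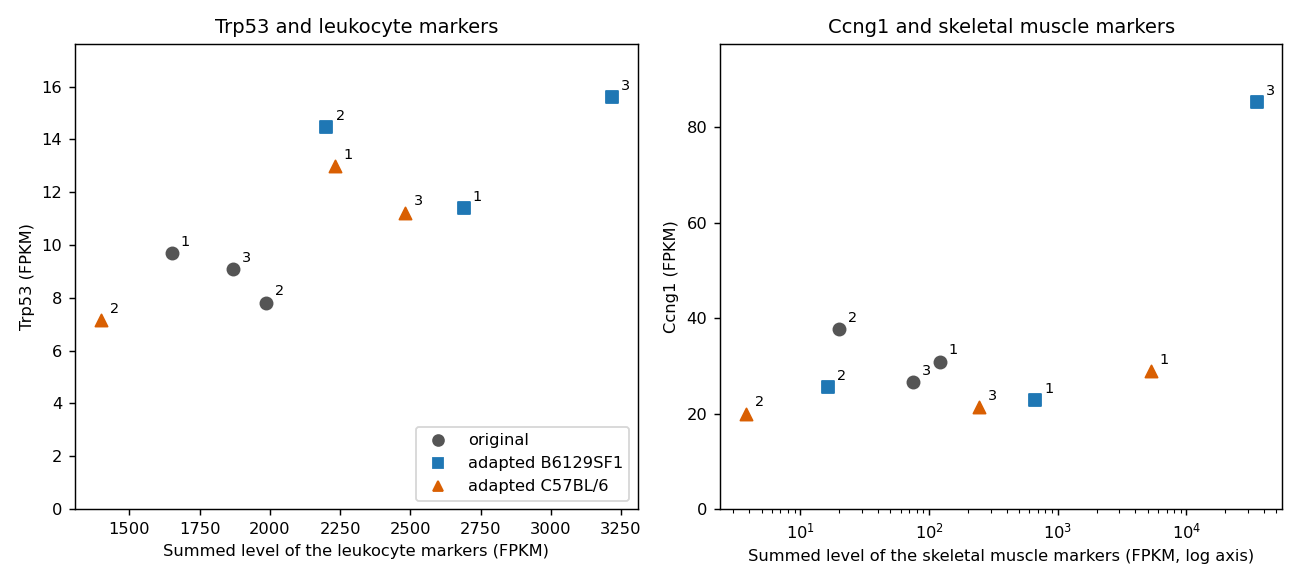
Trp53 (FPKM) against the summed level of the leukocyte markers (left) and Ccng1 (FPKM) against the summed level of the skeletal muscle markers on a log axis (right), with 1 point per tumor labelled by replicate number. Adapted C57BL/6 replicate 2 has the lowest Trp53 and leukocyte sum, and adapted B6129SF1 replicate 3 has the highest Ccng1 and muscle sum.

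Mdm2, which both restrains p53 and is induced by it, had slightly lower mean levels in the adapted groups. It was 25.5, 23.4 and 29.1 FPKM in the original group, 23.4, 19.0 and 24.0 FPKM in the adapted B6129SF1 group and 22.2, 20.2 and 21.4 FPKM in the adapted C57BL/6 group. The adapted C57BL/6 tumors were all below the original tumors, and the adapted B6129SF1 tumors overlapped with them. The log2 fold changes of -0.23 (SE 0.12, limma adjusted p = 0.259) and -0.28 (SE 0.12, adjusted p = 0.194) did not pass the test. The other negative regulators were measured alongside. Mdm4, a partner of Mdm2 that holds p53 inactive, was 17.8 ± 1.04 FPKM in the original group, 19.1 ± 3.96 FPKM in the adapted B6129SF1 group and 20.2 ± 0.55 FPKM in the adapted C57BL/6 group (SD, n = 3 tumors each). Ppm1d, the phosphatase that ends the damage signal, was 10.2 ± 0.0948, 11.2 ± 1.71 and 10.8 ± 1.44 FPKM in these groups (SD, n = 3 tumors each). None of the 5 genes of the negative feedback list with a test passed it in either comparison by limma (8.28% and 6.75% of all genes did), with 0 and 1 at an unadjusted p under 0.05 (26.5% and 24.4% of all genes).

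Cdkn2a was weak in all tumors but was higher in most adapted tumors. The values were 0.182, 0.449 and 0.224 FPKM in the original group, 0.437, 0.877 and 0.391 FPKM in the adapted B6129SF1 group and 0.743, 0.804 and 0.638 FPKM in the adapted C57BL/6 group. All 3 adapted C57BL/6 tumors were above all original tumors, whereas 2 of the adapted B6129SF1 tumors lay below original replicate 2. The mean was 2.56 times that of the original group in the adapted C57BL/6 group (exact two-sided permutation test, p = 0.1, which no design of 3 against 3 can undercut) and 2.00 times in the adapted B6129SF1 group (exact two-sided permutation test, p = 0.3). For all 6 adapted tumors against the original tumors the exact permutation test gave p = 0.0476 (two-sided), or 0.19 after Benjamini-Hochberg adjustment over the 4 comparisons of this gene. That p exceeded 0.05 in 7 of the 9 repeats that omitted 1 tumor, all but those without original replicate 2 and adapted B6129SF1 replicate 3, with values up to 0.143. p16INK4a and p19ARF share exons and cannot be told apart in a value per gene.

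Of 11 genes known to control Cdkn2a, only Tbx2, a T-box repressor that can silence this locus, passed the test. That was 1 of 11 in each adapted group against the original group, where 8.28% and 6.75% of all genes passed by limma. Tbx2 was 0.527, 1.40 and 0.819 FPKM in the original group, 17.8, 5.26 and 2.76 FPKM in the adapted B6129SF1 group and 10.5, 8.68 and 6.55 FPKM in the adapted C57BL/6 group. It rose in every adapted tumor relative to every original tumor, with log2 fold changes of 2.02 (SE 0.50, limma adjusted p = 0.0442) and 2.32 (SE 0.50, adjusted p = 0.031). The mean levels of Tbx2 and Cdkn2a thus differed from the original group in the same direction. The call for Tbx2 in the adapted B6129SF1 group was kept in 2 of the 9 fits that omitted 1 tumor, those without adapted B6129SF1 replicate 1 or 3, and in the adapted C57BL/6 group in 3, those without an adapted B6129SF1 tumor. In the other fits the adjusted p was at most 0.133 and 0.0989. The Polycomb genes Bmi1 and Ezh2, which repress the locus, did not pass (Bmi1 28.2 ± 2.8, 23.2 ± 1.34 and 24.3 ± 1.15 FPKM in the original, adapted B6129SF1 and adapted C57BL/6 groups, SD, n = 3). The neighbouring inhibitor gene Cdkn2b stayed between 0.291 and 1.80 FPKM.

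Cdkn1a, which encodes the p21 inhibitor of cyclin-dependent kinases, was abundant without a difference between groups beyond the spread. It was 48.4, 35.4 and 62.3 FPKM in the original group, 54.9, 40.7 and 62.4 FPKM in the adapted B6129SF1 group and 52.4, 32.9 and 40.7 FPKM in the adapted C57BL/6 group. All groups overlapped. The log2 fold changes were 0.13 (95% confidence interval -0.43 to 0.68, limma adjusted p = 0.777) and -0.20 (95% confidence interval -0.75 to 0.36, adjusted p = 0.67).

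Ccng1, a cyclin G gene that p53 induces, was dominated by a single tumor. The values were 30.9, 37.8 and 26.6 FPKM in the original group, 22.9, 25.6 and 85.3 FPKM in the adapted B6129SF1 group and 28.8, 20.0 and 21.4 FPKM in the adapted C57BL/6 group. Adapted B6129SF1 replicate 3, the tumor with the most skeletal muscle transcripts, was far above every other tumor. The log2 fold change of Ccng1 in the adapted B6129SF1 group was 0.23 (SE 0.43, limma adjusted p = 0.769) and became -0.36 without that tumor (adjusted p = 0.282), so the direction rested on it. Adapted C57BL/6 replicate 1, second in muscle transcripts, had the highest Ccng1 of its group. The part of muscle tissue was not tested.

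Zmat3, a zinc finger gene of RNA binding that p53 activates, was lower in most adapted tumors. It was 6.24, 4.66 and 5.77 FPKM in the original group, 3.80, 3.57 and 4.95 FPKM in the adapted B6129SF1 group and 4.24, 3.27 and 3.71 FPKM in the adapted C57BL/6 group. Only adapted B6129SF1 replicate 3 exceeded the lowest original tumor. The log2 fold change was -0.36 (SE 0.15, limma adjusted p = 0.17) in the adapted B6129SF1 group and -0.46 (SE 0.15, adjusted p = 0.103) in the adapted C57BL/6 group, neither past the test.

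Sesn2, a sestrin that curbs mTORC1 under stress, was 4.59, 4.35 and 5.50 FPKM in the original group, 4.65, 3.48 and 2.83 FPKM in the adapted B6129SF1 group and 4.40, 4.14 and 6.77 FPKM in the adapted C57BL/6 group. Gdf15, a secreted stress cytokine, was 0.840, 1.31 and 0.921 FPKM, 1.53, 0.464 and 0.965 FPKM, and 0.772, 1.25 and 1.01 FPKM in these groups. The groups overlapped for both genes in every comparison. The log2 fold changes of Sesn2 were -0.34 (limma adjusted p = 0.318) and 0.05 (adjusted p = 0.91), and those of Gdf15 were -0.05 (adjusted p = 0.901) and -0.01 (adjusted p = 0.987).

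Of the members that promote cell death, Bax passed the test and Bbc3 did not. Bax, which opens the outer mitochondrial membrane, was 53.7, 60.0 and 56.5 FPKM in the original group, 69.8, 68.1 and 77.1 FPKM in the adapted B6129SF1 group and 72.7, 74.9 and 82.0 FPKM in the adapted C57BL/6 group. Every adapted tumor was above every original tumor. The rise in the adapted C57BL/6 group passed the test, with a log2 fold change of 0.43 (SE 0.09, limma adjusted p = 0.0296), or 1.35-fold between the mean FPKM values. In the adapted B6129SF1 group the log2 fold change was 0.33 (SE 0.09, adjusted p = 0.0587), just outside the threshold. With both adapted groups together against the original group it was 0.38 (SE 0.08, adjusted p = 0.0181).

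The call for Bax in the adapted C57BL/6 group was lost in 5 of the 9 fits that omitted 1 tumor, those without original replicate 1 or 3 or without any of the adapted C57BL/6 tumors. The log2 fold change in these 9 fits was between 0.38 and 0.47, and the adjusted p reached 0.124. Without both tumors richest in muscle transcripts the adjusted p was 0.0534. For both adapted groups together the call was lost only without original replicate 1 (log2 fold change 0.34, adjusted p = 0.0784) or replicate 3 (0.38, adjusted p = 0.073). Under other scalings Bax also passed in the adapted B6129SF1 group (adjusted p = 0.0479 with median-of-ratios scaling and 0.0299 with quantile normalization).

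Bbc3, which encodes the BH3-only protein Puma, was 4.44, 5.30 and 5.75 FPKM in the original group, 7.71, 7.98 and 5.81 FPKM in the adapted B6129SF1 group and 6.10, 6.90 and 7.42 FPKM in the adapted C57BL/6 group. As for Bax, no adapted tumor lay within the original range, although adapted B6129SF1 replicate 3 exceeded it by little. The log2 fold change was 0.40 (SE 0.14, limma adjusted p = 0.119) in the adapted B6129SF1 group and 0.34 (SE 0.14, adjusted p = 0.186) in the adapted C57BL/6 group, neither past the test.

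In total, 0 of the 9 members tested passed in the adapted B6129SF1 group against the original group by limma, where 8.28% of all genes tested passed, and 4 had an unadjusted p under 0.05, as did 26.5% of all genes. In the adapted C57BL/6 group 1 of 9 passed, against 6.75% of all genes, and 4 had an unadjusted p under 0.05 (24.4% of all genes). None was a DEG, against 3.22% and 3.09% of all genes. Tumors of the groups did not overlap for 3 members in the adapted B6129SF1 comparison and 4 in the adapted C57BL/6 comparison, against 29.6% and 32.8% of all genes. The shares past the test and without overlap were near the background, and the shares with an unadjusted p under 0.05 were above it, each resting on 9 genes. The median log2 fold change of the 9 members was 0.13 and -0.01, against -0.03 and -0.03 for all genes tested. Both comparisons used the same original tumors.

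Between the adapted C57BL/6 and adapted B6129SF1 groups 0 of the 9 members passed by limma (0.0292% of all genes), 0 had an unadjusted p under 0.05 (6.27% of all genes), and all groups overlapped (11.7% of all genes did not). Sesn2 had a log2 fold change of 0.38 (95% confidence interval -0.07 to 0.84) and Ccng1 of -0.65 (95% confidence interval -1.64 to 0.33). With both adapted groups together against the original group, Bax was the only member to pass, where 11.9% of all genes did. An unadjusted p under 0.05 was found for 4 of the 9 members (29.4% of all genes), and the groups did not overlap for Bax and Bbc3, 2 of 9 (19.2% of all genes).

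**Figure D3:**
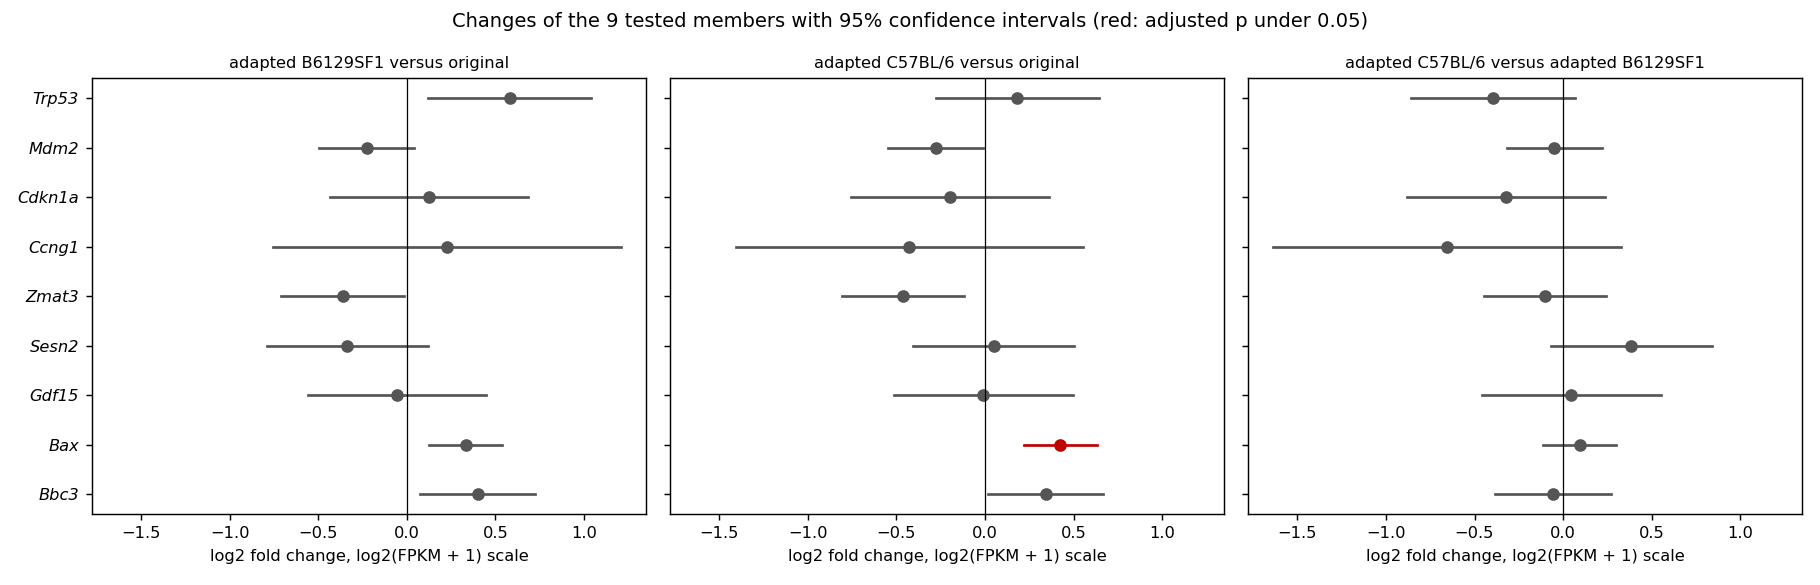
Log2 fold change on the log2(FPKM + 1) scale (horizontal axes) of the 9 members tested in the 3 pairs of groups, with 95% confidence intervals from limma. Bax in the adapted C57BL/6 group, at 0.43, is the only value past the test and is drawn in red.

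The remaining p53 targets and feedback genes were taken from lists by function. Of the 45 genes listed, 40 had a row under their symbol and 38 were tested. In the adapted B6129SF1 group 3 rose and 3 fell by limma, and in the adapted C57BL/6 group 0 rose and 4 fell, so that 32 and 34 did not pass. Among all genes tested 4.37% rose and 3.92% fell in the adapted B6129SF1 group, and 3.99% rose and 2.77% fell in the adapted C57BL/6 group. The median log2 fold change of the 38 genes was 0.05 and 0.00, and 0 of them passed between the adapted groups, with 6 of 38 at an unadjusted p under 0.05 from limma (6.27% of all genes). In the adapted B6129SF1 comparison the 6 calls became 1 without original replicate 1 or 3 and 2 without any one of the adapted B6129SF1 tumors. In the adapted C57BL/6 comparison the 4 calls became 1 without original replicate 1 or 3 or adapted C57BL/6 replicate 3, and 2 without original replicate 2 or adapted C57BL/6 replicate 1 or 2.

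Among 11 apoptosis targets tested, 2 passed in each comparison, both lower in the adapted tumors. Of all genes tested, 3.92% and 2.77% were lower past the test. The other 9 targets did not pass, and the median log2 fold changes over the list were 0.04 and -0.07. Tnfrsf10b, the mouse death receptor for TRAIL, was 7.53, 5.08 and 6.03 FPKM in the original group, 2.65, 3.02 and 2.83 FPKM in the adapted B6129SF1 group and 2.77, 2.84 and 2.61 FPKM in the adapted C57BL/6 group. No tumors overlapped, and adapted tumors lay within a narrow band. It fell by 0.90 log2 units in the adapted B6129SF1 group (SE 0.14, limma adjusted p = 0.00967) and by 0.93 in the adapted C57BL/6 group (SE 0.14, adjusted p = 0.007). Tnfrsf10b passed in both comparisons in each of the 9 fits that left out a tumor (highest adjusted p = 0.0418 and 0.0419).

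Pmaip1, which encodes the BH3-only protein Noxa, was 6.74, 5.78 and 14.3 FPKM in the original group, 1.18, 1.64 and 3.47 FPKM in the adapted B6129SF1 group and 2.66, 1.40 and 2.69 FPKM in the adapted C57BL/6 group. It fell by 1.66 log2 units (SE 0.37, limma adjusted p = 0.0298) and by 1.55 (SE 0.37, adjusted p = 0.0424), and the adapted tumors were all below the original tumors. In the adapted B6129SF1 comparison the call was lost in 5 of the 9 fits, without original replicate 1 or 3, adapted B6129SF1 replicate 1 or 2, or adapted C57BL/6 replicate 3 (adjusted p up to 0.0811). In the adapted C57BL/6 comparison it was lost in 7, all but those without adapted B6129SF1 replicate 1 or 3 (adjusted p up to 0.118). Without original replicate 3, the tumor with the most Pmaip1, the log2 fold changes were -1.30 and -1.18. Rps27l, a ribosomal protein gene and the most abundant target of the list, was 177 ± 15.2, 144 ± 33.1 and 148 ± 13.9 FPKM in the 3 groups (SD, n = 3 tumors each) and did not pass.

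Genes of DNA repair and metabolism passed in both directions, 2 higher and 1 lower of 12 tested in the adapted B6129SF1 group (4.37% and 3.92% of all genes) and 0 higher and 2 lower in the adapted C57BL/6 group (3.99% and 2.77% of all genes). In these comparisons 7 and 4 of the 12 had an unadjusted p under 0.05 from limma (26.5% and 24.4% of all genes). The groups did not overlap for 8 and 4 of the 12 (29.6% and 32.8% of all genes). Between the adapted groups 0 of the 12 passed by limma and 4 had an unadjusted p under 0.05 (6.27% of all genes), and the log2 fold change was positive for 0 of 12 (51.5% of all genes). Polk, a translesion DNA polymerase, was 9.36, 8.72 and 9.98 FPKM in the original group, 6.90, 6.36 and 6.55 FPKM in the adapted B6129SF1 group and 6.53, 6.38 and 6.13 FPKM in the adapted C57BL/6 group. It fell by 0.44 log2 units (SE 0.09, limma adjusted p = 0.0239) and by 0.49 (SE 0.09, adjusted p = 0.0173), and no adapted tumor reached the original range. The call was lost without original replicate 1 or 3 in both comparisons, without adapted B6129SF1 replicate 2 or 3 in the adapted B6129SF1 comparison and without adapted C57BL/6 replicate 3 in the adapted C57BL/6 comparison (adjusted p up to 0.0908 and 0.0879).

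Fdxr, the ferredoxin reductase of mitochondria, was 8.36, 8.74 and 8.59 FPKM in the original group, 6.46, 8.10 and 7.28 FPKM in the adapted B6129SF1 group and 5.69, 5.87 and 5.98 FPKM in the adapted C57BL/6 group. It fell in the adapted C57BL/6 group by 0.48 on the log2 scale (SE 0.10, limma adjusted p = 0.0269), a call lost in each of the 6 fits that left out an original or an adapted C57BL/6 tumor (adjusted p up to 0.0983). In each pair of groups the tumors did not overlap.

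Sesn1, a sestrin like Sesn2, rose in the adapted B6129SF1 group, where it was 43.3, 37.2 and 44.9 FPKM against 19.3, 29.3 and 18.7 FPKM in the original group. The adapted C57BL/6 tumors had 26.1, 31.9 and 20.3 FPKM and overlapped with the original tumors. Its log2 fold changes were 0.89 (SE 0.20, limma adjusted p = 0.0321) in the adapted B6129SF1 group against the original group and -0.68 (adjusted p = 0.602) between the adapted C57BL/6 and adapted B6129SF1 groups, and the latter did not pass. Pltp, the phospholipid transfer protein, was 13.8, 28.9 and 16.1 FPKM in the original group, 45.6, 52.4 and 56.0 FPKM in the adapted B6129SF1 group and 38.3, 17.0 and 29.5 FPKM in the adapted C57BL/6 group, with a log2 fold change of 1.41 (SE 0.32, adjusted p = 0.0322) in the adapted B6129SF1 group. Each of these calls was lost in 6 of the 9 fits, without original replicate 1 or 3, without any adapted B6129SF1 tumor, and without adapted C57BL/6 replicate 1 for Sesn1 or replicate 3 for Pltp (adjusted p up to 0.11 and 0.108). The lowest Pltp of the adapted tumors was in adapted C57BL/6 replicate 2, which also had the lowest leukocyte sum.

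**Figure D4:**
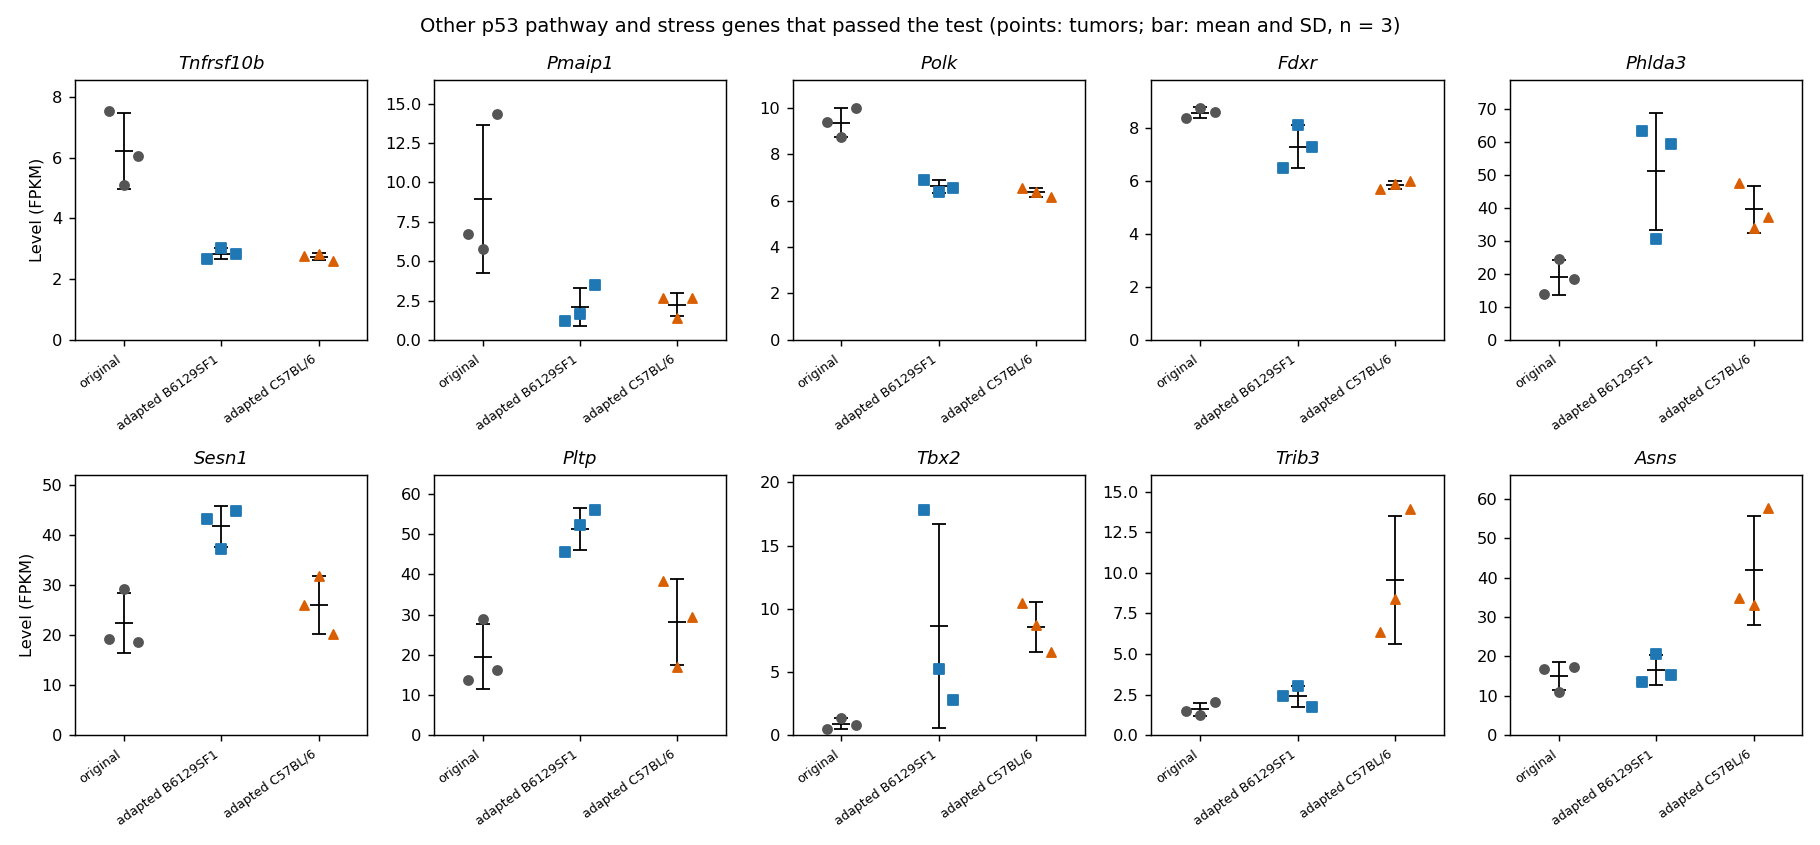
Level in FPKM (vertical axes from 0) of the 10 other pathway and stress genes that passed the test in the adapted B6129SF1 or adapted C57BL/6 group against the original group, with 1 point per tumor and the mean and SD of each group. Tnfrsf10b lies at 5.08 to 7.53 FPKM in the original tumors and at 2.61 to 3.02 FPKM in the adapted tumors.

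Of 10 genes tested from the list of cell cycle arrest targets, Phlda3 alone passed by limma. That was 1 of 10 in the adapted B6129SF1 group (8.28% of all genes) and 0 of 10 in the adapted C57BL/6 group (6.75% of all genes). Phlda3 encodes a PH domain protein that competes with Akt for the membrane. It was 13.8, 24.3 and 18.6 FPKM in the original group, 63.3, 30.6 and 59.2 FPKM in the adapted B6129SF1 group and 47.5, 33.8 and 37.3 FPKM in the adapted C57BL/6 group. All adapted tumors were above all original tumors. The log2 fold change was 1.35 (SE 0.29, limma adjusted p = 0.0282) in the adapted B6129SF1 group and 1.05 (SE 0.29, adjusted p = 0.0674) in the adapted C57BL/6 group. The first was lost in 5 of the 9 fits, without original replicate 1 or 3, adapted B6129SF1 replicate 1 or 3, or adapted C57BL/6 replicate 3 (adjusted p up to 0.0921). Gadd45a, a growth arrest gene, was 42.1 ± 8.02, 46.7 ± 24.2 and 59.1 ± 20.8 FPKM in the 3 groups (SD, n = 3 tumors each) and did not pass.

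Of the regulators and relatives of p53, 0 of 16 tested passed in either comparison by limma (8.28% and 6.75% of all genes did), with 3 and 2 at an unadjusted p under 0.05 (26.5% and 24.4% of all genes). Rpl11, a ribosomal protein that binds Mdm2, was the most abundant at 1598 ± 324, 1491 ± 155 and 1469 ± 264 FPKM in the original, adapted B6129SF1 and adapted C57BL/6 groups (SD, n = 3 tumors each). Npm1, a nucleolar partner of p19ARF, was 787 ± 112, 578 ± 84.9 and 653 ± 50.4 FPKM in the same groups, and differed by -0.45 log2 units between the adapted B6129SF1 and original groups (limma adjusted p = 0.107). Trp73 did not exceed 0.0602 FPKM in any tumor. The other cyclin-dependent kinase inhibitors, 5 genes, did not pass either, with 0 and 1 at an unadjusted p under 0.05 from limma, set against these same shares of all genes. The summed proliferation markers overlapped between the groups, at 472 to 695 FPKM in the original group, 264 to 598 FPKM in the adapted B6129SF1 group and 503 to 577 FPKM in the adapted C57BL/6 group. None of the 10 markers passed in any comparison by limma, where 8.28%, 6.75% and 0.0292% of all genes did in the 3 pairs of groups. An unadjusted p under 0.05 was found for 1, 0 and 0 of the 10 (26.5%, 24.4% and 6.27% of all genes). A positive log2 fold change was found for 0 of 10 in the adapted B6129SF1 group against the original group (45.7% of all genes) and for 10 of 10 between the adapted C57BL/6 and adapted B6129SF1 groups (51.5% of all genes). The adapted B6129SF1 and original groups did not overlap for 1 of the 10 (29.6% of all genes), which was Rrm2, a subunit of ribonucleotide reductase. Rrm2 was 13.0, 37.8 and 32.6 FPKM in the adapted B6129SF1 group against 63.5, 40.3 and 44.3 FPKM in the original group (limma adjusted p = 0.167).

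Sesn2 and Gdf15 are also induced by the stress factor ATF4, so a list of Atf4 and other ATF4 targets was examined. Of 12 tested, 2 rose in the adapted C57BL/6 group by limma and 0 in the adapted B6129SF1 group, where 6.75% and 8.28% of all genes passed. An unadjusted p under 0.05 was found for 6 in the adapted C57BL/6 group (24.4% of all genes), for 1 in the adapted B6129SF1 group (26.5% of all genes), which was Psat1 with a log2 fold change of -0.63, and for 6 between the adapted groups (6.27% of all genes). All 12 had a positive log2 fold change in the adapted C57BL/6 group (46.1% of all genes did), with a median of 0.62 against -0.03 for all genes tested. Trib3, a pseudokinase, was 1.47, 1.24 and 2.06 FPKM in the original group, 2.42, 3.03 and 1.73 FPKM in the adapted B6129SF1 group and 6.34, 8.38 and 13.9 FPKM in the adapted C57BL/6 group. It rose by 1.97 log2 units in the adapted C57BL/6 group (SE 0.27, limma adjusted p = 0.00515). Asns, asparagine synthetase, was 16.8, 10.9 and 17.4 FPKM in the original group, 13.6, 20.7 and 15.3 FPKM in the adapted B6129SF1 group and 34.9, 33.0 and 57.8 FPKM in the adapted C57BL/6 group, a rise of 1.40 (SE 0.26, adjusted p = 0.0169) that became 1.15 without adapted C57BL/6 replicate 3 (adjusted p = 0.0536). The adapted C57BL/6 tumors were above all adapted B6129SF1 tumors for both genes, and the differences of 1.59 and 1.26 between these groups did not pass the test (adjusted p = 0.293 and 0.326). Atf4 itself was 155 ± 6.41, 137 ± 9.88 and 164 ± 19.0 FPKM in the 3 groups (SD, n = 3 tumors each) and did not pass. Adapted C57BL/6 replicate 3 had the highest Trib3, Asns and Sesn2 of all tumors, but not the highest Gdf15 (1.01 FPKM, where all tumors ranged from 0.464 to 1.53 FPKM).

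**Figure D5:**
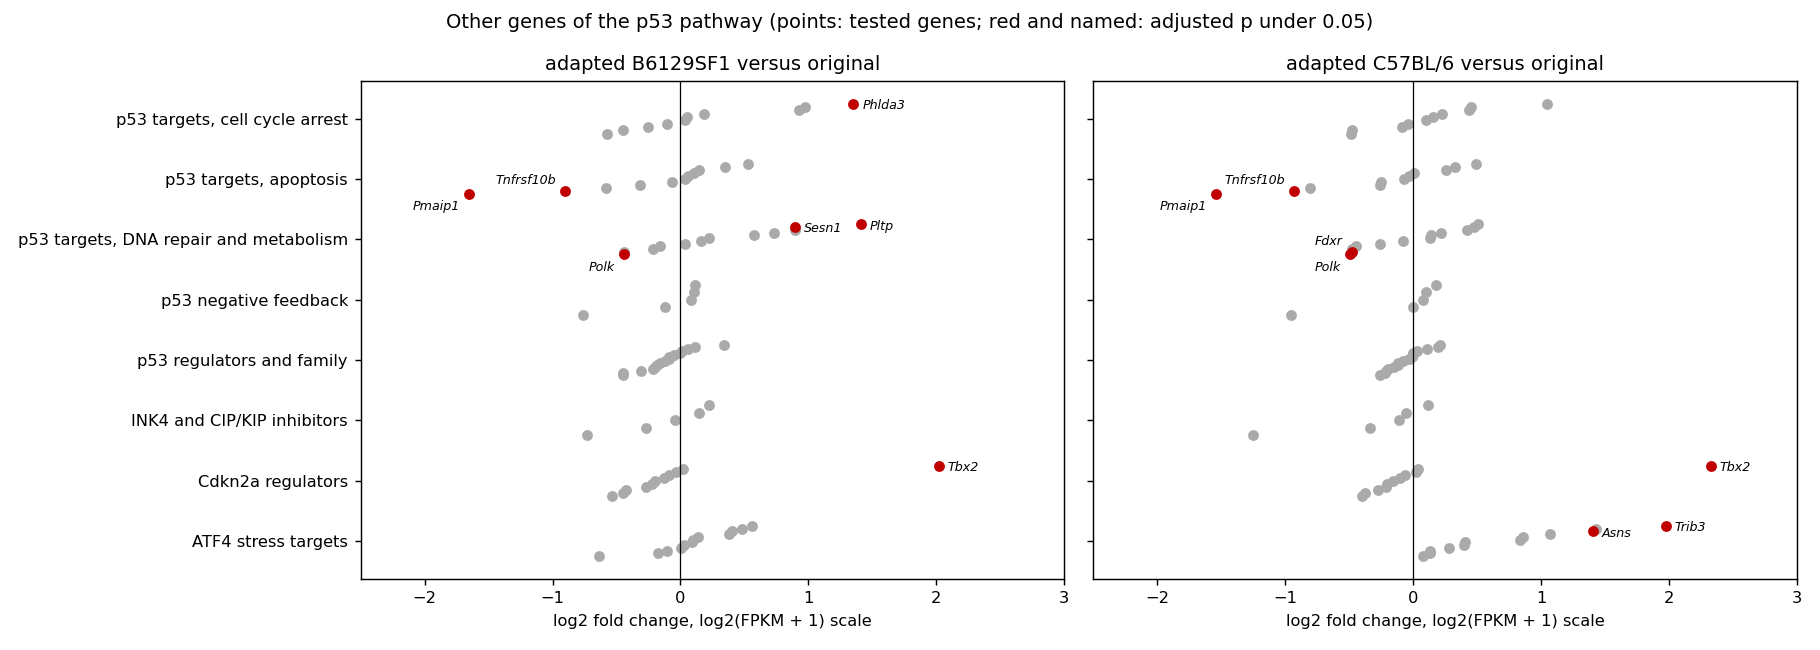
Log2 fold change on the log2(FPKM + 1) scale (horizontal axes) of every tested gene of 8 lists, those of the p53 pathway and that of ATF4 stress targets. The adapted B6129SF1 group (left) and adapted C57BL/6 group (right) are each set against the original group. Red, named points passed the test, including Tnfrsf10b at -0.90 and -0.93 and Tbx2 at 2.02 and 2.32.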

How the data were processed

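According to the methods and labels, the authors sequenced paired-end reads of total RNA from 9 tumors, used HISAT2 for alignment against mouse build mm10 and made the deposited FPKM values with Cuffnorm. The annotation, the scaling between tumors and any gene filter were not given in the sources used here. The labels name the organism as human, whereas the table holds mouse symbols. Tumors were grouped by their titles. No mouse reference was used here, so coordinates and sequences are not given.

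Values were taken as log2(FPKM + 1). A minimum of 1 FPKM in 3 or more tumors left 10263 of 17369 genes for limma 3.58.1 (R 4.3.3), fitted as 1 model of 3 groups with eBayes trend and Benjamini-Hochberg adjustment. No pair of tumors shared the same value for more than 0.0487% of these genes. Cdkn2a was compared by exact permutation tests. The code was tested on simulated data. Replicates are labelled as biological, and p-values set group differences against the spread between these tumors. Both adapted groups received cells with the same passage history, so the adapted tumors do not replicate the passage itself.

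The 10 members and all lists were chosen with earlier results of these data known. Named genes were the members, list genes that passed the test, up to 4 others a list by mean level, the 5 genes most like Trp53, and markers. Wrap53, Cdkn2b, Trp73, Btg2 and Trp63 fall outside this rule and were chosen after their values were seen. Same-numbered tumors are different animals. Alternatives were other offsets, filters, scalings, models and each tumor left out.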

Additional observations from a re-analysis of the deposited data

How the results depend on the processing

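The number of members past the test lay between 0 and 3 over all settings. In the adapted B6129SF1 comparison it was 0, and 1 without a filter on low values, 1 with median-of-ratios scaling and 1 with quantile normalization. In the adapted C57BL/6 comparison it was 1, and 2 with quantile normalization, 0 with the replicate number as a block, 0 at the DEG thresholds and 0 without the 2 tumors richest in muscle transcripts, an alternative chosen after seeing the data. For both adapted groups together it was 1, and 2 with quantile normalization, 2 without those 2 tumors and 0 at the DEG thresholds. Leaving out each tumor gave 0 to 1, 0 to 1 and 0 to 3 members in these comparisons, and 0 between the adapted groups. In the same fits 225 to 808, 199 to 798 and 463 to 1163 of all genes passed, and 0 to 6 between the adapted groups. Directions changed for genes whose confidence intervals held 0. Without the 2 tumors rich in muscle, Cdkn1a and Ccng1 had log2 fold changes of -0.00580 and -0.364 in the adapted B6129SF1 comparison, and Gdf15 0.0786 in the adapted C57BL/6 comparison and 0.00713 for both groups together. Sesn2 was -0.0303 with quantile normalization in the adapted C57BL/6 comparison. Leaving out 1 tumor at a time, the log2 fold change of Gdf15 ranged from -0.247 to 0.148, -0.0936 to 0.0893, -0.157 to 0.238 and -0.128 to 0.0695 over the 4 comparisons, with both adapted groups together last. That of Cdkn1a ranged from -0.0816 to 0.318 in the adapted B6129SF1 comparison and -0.243 to 0.156 for both together, that of Ccng1 from -0.364 to 0.562 and -0.396 to 0.0677, and that of Sesn2 from -0.138 to 0.161 in the adapted C57BL/6 comparison. Between the adapted groups Mdm2 ranged from -0.153 to 0.00970, Bbc3 from -0.184 to 0.0163 and Zmat3 from -0.177 to 0.0127. The cause of these changes was not tested. The deviations of same-numbered tumors correlated between -0.388 and 0.614, with the highest value for replicate 2 of the adapted groups. The labels give the replicate number without naming a batch. Whether the replicate number marks a shared batch was not tested. With it as a block, the adjusted p from limma was 0.0606 for Bax and 0.0558 for Fdxr in the adapted C57BL/6 comparison, and 0.0659 for Phlda3, 0.057 for Polk, 0.0555 for Sesn1, 0.0828 for Pltp and 0.0607 for Tbx2 in the adapted B6129SF1 comparison. The block left 444 and 388 genes past the test of 850 and 693. With only the groups compared there were 449 in the adapted B6129SF1 comparison. The other p53 targets and feedback genes past the test numbered 6 in the adapted B6129SF1 comparison, 3 without a filter on low values, 2 with the block and 2 without the 2 tumors rich in muscle. In the adapted C57BL/6 comparison they numbered 4, and 2 with a minimum mean of 5 FPKM or without those tumors. All genes past the test numbered 472 in the adapted B6129SF1 comparison without those tumors and 448 in the adapted C57BL/6 comparison with a minimum mean of 5 FPKM. Values of single genes and counts of genes past the test were tallied together under alternatives other than omission of 1 tumor. Of these, 518 were kept. For a single gene that means its direction and side of the threshold, and for a count a similar size. Among values of single genes 33 lost the call, 6 gained it and 5 changed sign, and 23 counts were not of similar size. Precision is limited by 3 tumors a group, and absolute depth is unknown.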

Other observations

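Adapted B6129SF1 replicate 3, the tumor with the most skeletal muscle and leukocyte marker transcripts, also differed in p53 family and target genes outside the members. Btg2, an antiproliferative target of p53, was 31.4 FPKM in that tumor and between 2.60 and 4.96 FPKM in the other 8. Trp63, the p53 relative of stratified epithelia, was 4.76 FPKM there, 0.736 FPKM in adapted C57BL/6 replicate 1, which was second in muscle transcripts, and at most 0.130 FPKM elsewhere. Ccng1 showed the same highest tumor. These genes were picked after their values were seen.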
